A study of Homo sapiens with 8 samples.

Results

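The genes described here are 36 enzymes that make serine, folate-bound one-carbon units, purine and pyrimidine nucleotides, polyamines and S-adenosylmethionine. They were chosen by name for what their products do, by a rule that uses no measured value, although with earlier results of these data known, and all 36 were found among the 52719 genes to which the transcripts of the table could be assigned. The RNA came from SH-SY5Y, a human neuroblastoma cell line, as 4 libraries of cells kept for 7 days in 1 µM 9-cis retinoic acid to differentiate them (replicates 21 to 24) and 4 libraries of undifferentiated cells (replicates 17 to 20). The labels record no vehicle, dose or day for the undifferentiated cells, so the retinoid and any difference in time in culture cannot be told apart. All libraries come from a single line, and no label says whether replicates were separate cultures, so p-values then measure only how far these libraries vary, which may be technical.

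These enzymes form a connected network. Serine made from a glycolytic intermediate gives up a carbon to tetrahydrofolate, mostly in mitochondria, and the carbon leaves as formate to be built into purines and thymidylate in the cytosol. The purine and pyrimidine pathways each assemble a base from small precursors on a ribose phosphate, while the methionine cycle makes S-adenosylmethionine, which donates methyl groups and, after decarboxylation, the aminopropyl groups of spermidine and spermine. Dividing cells draw heavily on these routes, and in neuroblastoma many of the genes are known as targets of MYC family factors.

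The values are TPM, the share of a library's transcripts that a gene takes, corrected for transcript length and scaled to a fixed total. Per-library values are given in the order 21, 22, 23 and 24 for differentiated cells and 17, 18, 19 and 20 for undifferentiated cells. Fold changes are on the scale of log2(TPM + 1), which understates the change of low genes, and run differentiated minus undifferentiated. They come from a limma fit over every gene with a mean of at least 1 TPM, and a call needed an adjusted p (Benjamini-Hochberg) under 0.05. In bulk RNA of this kind, fewer cells with a transcript and less of it per cell cannot be told apart.

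Of 17077 genes tested, 5791 (33.9%) were called higher and 2970 (17.4%) lower in differentiated cells, and the median gene moved by 0.10. Scaling each library by the median of gene ratios shifted that median by -0.11 and changed the calls to 4628 higher and 4455 lower, and quantile normalization shifted it by -0.16 with 4173 higher and 5098 lower. Differentiated replicate 22 stood apart, with retained-intron transcripts at 6.49% of matched TPM, against 7.74% to 8.61% in the other differentiated and 7.53% to 7.97% in the undifferentiated libraries. Replicate 22 had 16273 genes at 1 TPM or more, against 16829 to 17370 in the other differentiated and 16265 to 16433 in the undifferentiated libraries. By the sample labels, undifferentiated replicates 17 and 18 came from sequencing lane 7 and the other 6 libraries from lane 8, so lane was also tried as a term and lane 8 alone. Neuroblast markers were present in all libraries except TH, which encodes tyrosine hydroxylase and reached at most 0.137 TPM. Of the 13 neuroblast markers tested, 2 were called higher and 9 lower, and the whole list summed to 1719.5 to 1972 TPM in the differentiated and 2628 to 2731 TPM in the undifferentiated libraries. Of 9 fibroblast and mesenchymal markers tested, 6 were called higher and none lower. That list summed to 1344 to 1454 TPM in the differentiated and 419.7 to 454 TPM in the undifferentiated libraries, although COL1A2, a type I collagen chain, stayed at or below 0.167 TPM in every library. SOX10 and FOXD3 (Schwann lineage), CD3E, HBB and HBA1 (blood) and KRT5 and KRT14 (epithelium) were listed at 0 in all 8 libraries, although 2 of 4 tested Schwann and 2 of 4 tested epithelial markers were called higher. No blood or endothelial marker reached a mean of 1 TPM. Schwann markers summed to 61.7 to 70.7 TPM in the differentiated and 27.2 to 29.2 TPM in the undifferentiated libraries, and epithelial markers to 15.1 to 19.9 TPM in the differentiated and 3.99 to 4.83 TPM in the undifferentiated libraries. The part of any of these marker changes in the results on the enzymes was not tested.

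Most of the synthesis enzymes were lower in differentiated cells. Of the 36, 35 passed the filter on low values, and ALDH1L2 (mitochondrial formyltetrahydrofolate dehydrogenase) did not, at 0.789 to 1.27 TPM in the differentiated and 0.907 to 1.07 TPM in the undifferentiated libraries. Among the 35, 29 were called, against 51.3% of all genes, and 26 of these were called lower, against 17.4% of all genes and 20.0% of protein-coding genes. ODC1, SHMT1 and MTHFD1L were called higher, against 33.9% of all genes and 39.1% of protein-coding genes. PHGDH, PSPH, PRPS2, CTPS2, NME2 and SMS were not called. The median log2 fold change of the 35 was -0.47, beside 0.10 for all genes tested. The members' median minus that of all genes was -0.56 without rescaling, -0.58 after median-of-ratios scaling and -0.53 after quantile normalization.

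**Figure D1:**
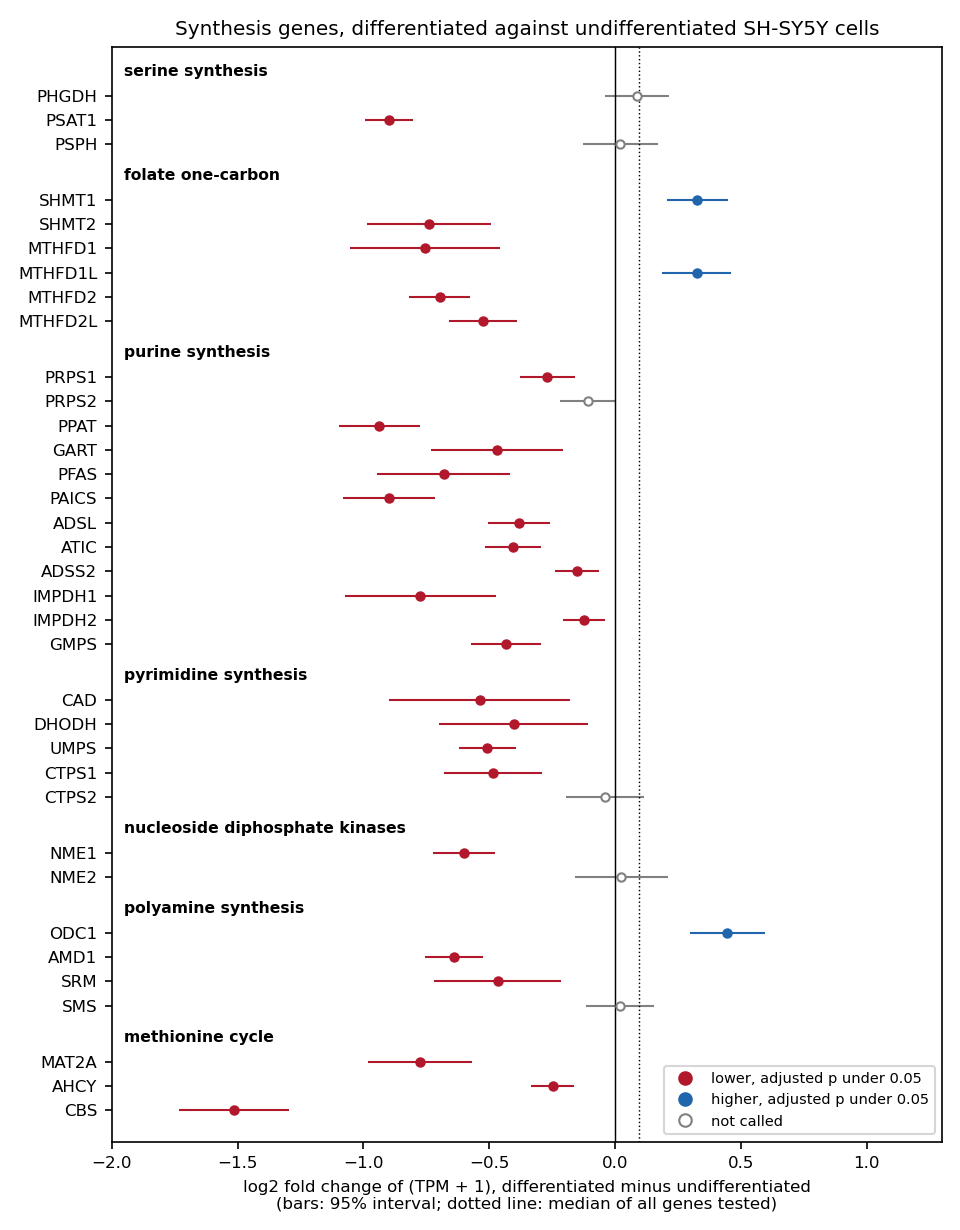
Log2 fold change of TPM + 1, differentiated minus undifferentiated, for the 35 enzymes tested, grouped by pathway; points are estimates, bars 95% intervals, filled points were called and open points were not. Of the 35 points, 26 are called lower, CBS lies lowest at -1.51, and the 3 called higher are ODC1, SHMT1 and MTHFD1L.

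Libraries of the groups did not overlap for 28 of the 35 (49.6% of all genes tested), with 25 lower (17.3% of all genes tested) and 3 higher (32.3%) in the differentiated cells. Counting only genes called lower with a log2 fold change of -0.5 or less, 15 of the 35 qualified, against 8.6% of all genes. Added over all 36, the enzymes made up 2976, 2945, 2989 and 2911 TPM in the differentiated libraries, against 3847, 3888, 3893 and 3873 TPM in the undifferentiated libraries. Every differentiated library lay below every undifferentiated one in this sum, a change of -23.7%. Without replicate 22 the fit called 4 members higher and 27 lower with a median of -0.39, beside 6616 and 3108 of 17135 genes. Within lane 8 alone it called 3 members higher and 21 lower with a median of -0.46, beside 4474 and 1886 of 17196 genes.

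Levels ranged widely between the enzymes. NME2 was the most abundant, at 518 ± 62.8 TPM in differentiated and 506 ± 12.5 TPM in undifferentiated cells (SD, n = 4 each), and NME1, MAT2A, ODC1, PAICS, IMPDH2, GART and SMS also averaged above 100 TPM in both groups. At the low end, besides ALDH1L2, stood DHODH at 10.7 ± 2.02 TPM in differentiated and 14.3 ± 1.34 TPM in undifferentiated cells (SD, n = 4 each) and MTHFD2L at 11.5 ± 0.51 TPM in differentiated and 17.0 ± 0.924 TPM in undifferentiated cells (SD, n = 4 each). The members varied more between libraries in differentiated cells: the standard deviation of log2(TPM + 1) was wider there for 30 of 35, as it was for 76.5% of all genes, and without replicate 22 for 24 of 35, against 62.9% of all genes. Replicate 22 was the lowest or highest differentiated library for 31 of the 35 (88.6%), and for 76.3% of all genes tested.

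Start sites were compared because the members largely moved together. RefSeq promoter windows (GRCh38.p14, 250 bases before to 50 after a start) were matched for 31 of the 36, giving 51 windows, and SHMT2, ALDH1L2, IMPDH2, PSPH and ADSL had none. The E-box CACGTG, which reads the same on both strands and is the sequence that MYC-MAX dimers are known to prefer, was present in 11 of the 51 windows (21.6%), beside 7.26% of 35116 windows of all genes. By gene, 9 of 31 members (29%) held it, beside 8.77% of 27305 genes with a window, whether or not they were tested here. Most members with a window lacked it, among them CBS, PSAT1 and MAT2A. The 51 member windows held 10 distinct sites. They are shown with their flanks because both members called lower and members called higher are among the genes holding them, and capitals mark CACGTG.
SRM (chr1:11060202-11060227, minus strand): ggccgggcccCACGTGgcccctggag
ODC1 (chr2:10448026-10448051, minus strand): gggccccgggCACGTGtgcggcgcgc
ODC1 (chr2:10447992-10448017, minus strand): cctgcggagaCACGTGgtcgccgagc
ATIC (chr2:215312003-215312028, plus strand): gccggcgggcCACGTGataagcccgg
ATIC (chr2:215312078-215312103, plus strand): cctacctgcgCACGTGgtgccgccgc
PPAT (chr4:56435782-56435807, minus strand): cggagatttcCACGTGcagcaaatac
MTHFD1L (chr6:150866322-150866347, plus strand): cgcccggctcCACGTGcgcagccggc
MTHFD1 (chr14:64388328-64388353, plus strand): agtccctaagCACGTGggttgggttg
DHODH (chr16:72008575-72008600, plus strand): cgctactgcgCACGTGcacccaacca
NME1 (chr17:51153583-51153608, plus strand): tgctgcgaacCACGTGggtcccgggc
Of the genes holding it, SRM, ATIC, PPAT, PAICS, MTHFD1, DHODH and NME1 were called lower, while ODC1 and MTHFD1L were called higher. ODC1 has its pair of sites starting at -29 and 6 relative to the start site, and ATIC at -46 and 30. The site printed for PPAT also lies in the PAICS window, since the genes are divergent neighbours, and the MTHFD1L site lies in 3 overlapping windows. A match is a description of letters in a window and not of binding.

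Searches for 2 other elements, on both strands, found single members. The C/EBP-ATF element TGATGCAA was in 3 overlapping windows of MTHFD1L and no other member, 5.88% of member windows beside 0.866% of all windows. By gene this was 1 of 31 (3.23%), beside 1.08% of all genes. The cAMP response element TGACGTCA was in the window of UMPS and no other member. That was 1.96% of member windows, close to the 1.85% of all windows. Both sites are printed, with the element in capitals, only to show where they lie.
MTHFD1L (chr6:150866347-150866374, plus strand): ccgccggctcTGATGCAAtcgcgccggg
UMPS (chr3:124730395-124730422, plus strand): acttcgcgggTGACGTCAtcggggcgcc

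In the serine pathway, 1 of 3 enzymes was called (against 51.3% of all genes), the middle one, which was lower (against 17.4%). PSAT1, the aminotransferase that makes phosphoserine, had 40.9, 40.7, 40.04 and 37.3 TPM in the differentiated libraries, against 74.8, 75.3, 73.6 and 75.9 TPM in the undifferentiated libraries. No library of the differentiated cells came near the undifferentiated ones, and the log2 fold change of -0.90 (SE 0.04, adjusted p = 7.06e-07) was a change of -46.9%. PHGDH, which takes 3-phosphoglycerate into the pathway, had 85.3, 76.9, 88.3 and 88.1 TPM in the differentiated libraries, against 80.9, 83.4, 76.1 and 78.0 TPM in the undifferentiated libraries. These ranges overlapped, its 95% interval was -0.04 to 0.21 on the log2 scale, and the adjusted p was 0.231. PHGDH was called higher without replicate 22, at 0.13 (adjusted p = 0.0244), and with coding transcripts alone, at 0.15 (0.0156). PSPH, the phosphatase that releases serine, had a log2 fold change of 0.02 with an interval of -0.13 to 0.17. PSPHP1, an unprocessed pseudogene of PSPH, was listed at 12.1 to 18.8 TPM in the differentiated and 13.4 to 26.6 TPM in the undifferentiated libraries, so reads shared between them make the PSPH level uncertain.

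Folate enzymes moved in opposite directions. SHMT2, the mitochondrial serine hydroxymethyltransferase that moves a carbon of serine to tetrahydrofolate, had 54.9, 39.2, 52.0 and 55.0 TPM in the differentiated libraries, against 79.9, 88.0, 86.2 and 81.6 TPM in the undifferentiated libraries. Replicate 22 was the lowest, the groups did not overlap, and the log2 fold change of -0.74 (SE 0.11, adjusted p = 0.000532) was a change of -40.1%. SHMT1, the cytosolic enzyme for the same reaction, had 22.2, 19.8, 22.3 and 21.2 TPM in the differentiated libraries, against 16.6, 16.6, 17.6 and 16.6 TPM in the undifferentiated libraries. Here every differentiated library was above every undifferentiated one, by a log2 fold change of 0.33 (SE 0.05, adjusted p = 0.00104). The rise was smaller, and still called, at 0.20 after median-of-ratios scaling and at 0.15 after quantile normalization.

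MTHFD2, the mitochondrial methylenetetrahydrofolate dehydrogenase and cyclohydrolase, had 33.4, 38.0, 34.2 and 34.1 TPM in the differentiated libraries, against 55.6, 56.3, 60.2 and 56.5 TPM in the undifferentiated libraries. In this case replicate 22 was highest of the differentiated libraries, and the log2 fold change of -0.70 (SE 0.05, adjusted p = 1.16e-05) left the groups well apart. Its relative MTHFD2L, which averaged 11.5 ± 0.51 TPM in differentiated and 17.0 ± 0.924 TPM in undifferentiated cells (SD, n = 4 each), fell too, with a log2 fold change of -0.52 (SE 0.06, adjusted p = 0.000114). MTHFD2P1, a transcribed processed pseudogene of MTHFD2, was listed at 1.25 to 2.80 TPM in the differentiated and 1.80 to 2.77 TPM in the undifferentiated libraries.

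For the formate step the mitochondrial enzyme was called higher and the cytosolic one lower. MTHFD1L, the mitochondrial synthetase that releases formate, had 22.4, 21.2, 23.2 and 21.4 TPM in the differentiated libraries, against 16.5, 17.8, 16.5 and 18.8 TPM in the undifferentiated libraries. The groups did not overlap and the log2 fold change of 0.33 (SE 0.06, adjusted p = 0.00198) was a rise, which fell short of a call with quantile normalization (0.15, adjusted p = 0.0919) and was 0.20 with median-of-ratios scaling. MTHFD1, the cytosolic trifunctional enzyme that takes formate back onto folate, had 72.0, 46.9, 63.1 and 72.7 TPM in the differentiated libraries, against 108, 109, 105 and 105 TPM in the undifferentiated libraries. Replicate 22 was again lowest, and the log2 fold change of -0.76 (SE 0.13, adjusted p = 0.00136) was a change of -40.3%.

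**Figure D2:**
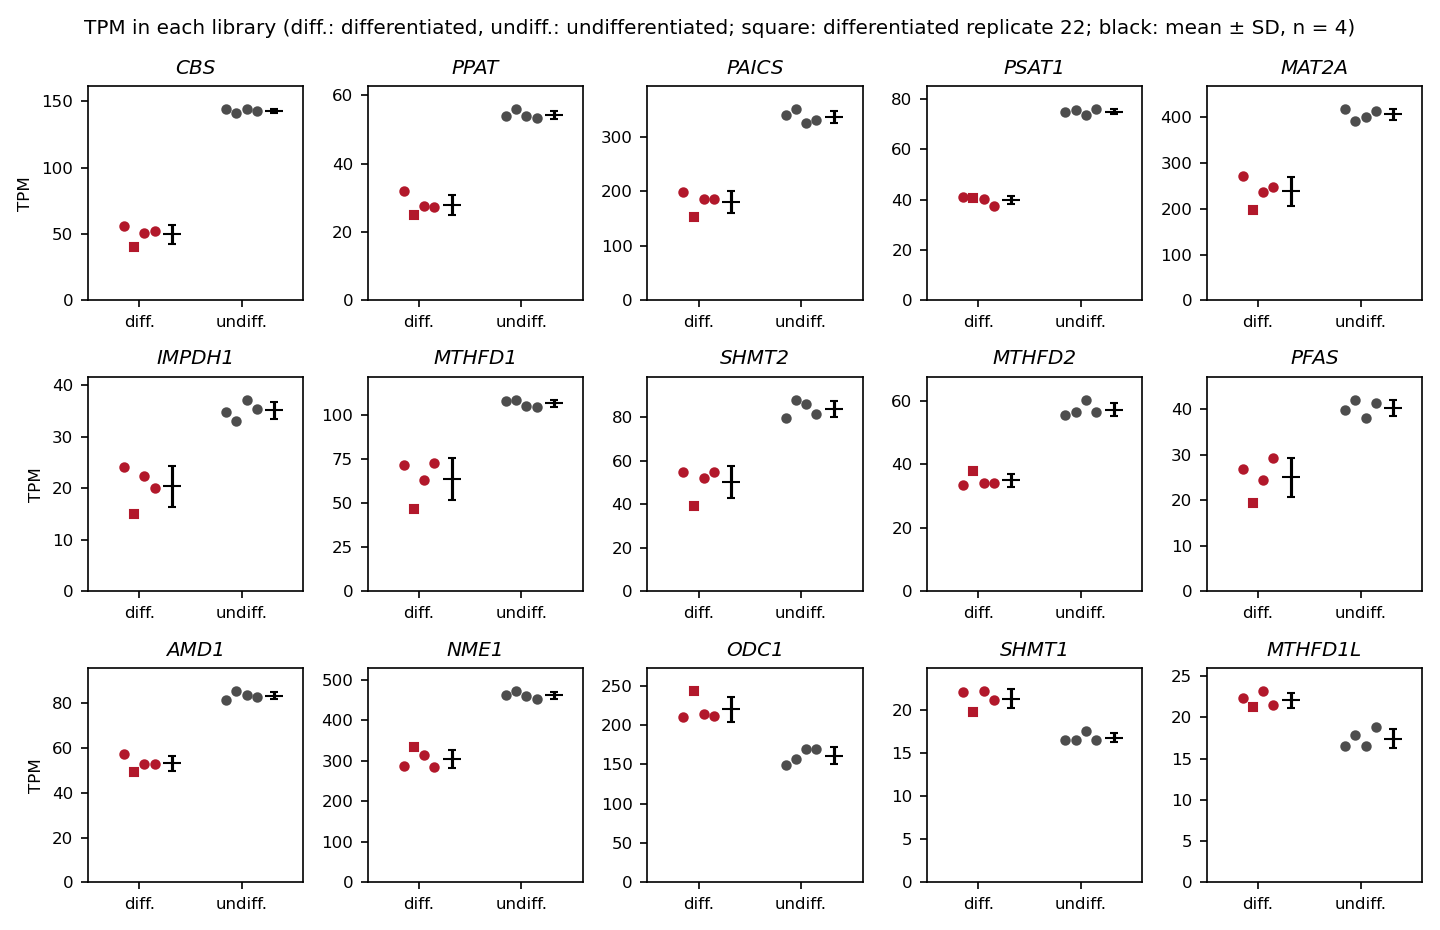
TPM in each library for the 12 enzymes with the largest called changes and for the 3 enzymes called higher; circles and, for replicate 22, squares are libraries, and black marks show the mean and SD of 4. In all 15 panels the groups are apart, with ODC1, SHMT1 and MTHFD1L higher and the others lower in differentiated cells.

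Purine synthesis fell along nearly its whole length, with 11 of 12 enzymes called lower (91.7%, against 17.4% of all genes) and none higher (against 33.9%). The median was -0.42. Median-of-ratios scaling and quantile normalization each gave 12 of 12 lower. They also called 4455 and 5098 of 17077 genes lower, against 2970 without rescaling. Leaving out replicate 22 gave 12 of 12, with 3108 of 17135 genes lower. Lane 8 alone gave 8, with 1886 of 17196 genes lower. Summed, the 12 had 739.6 to 846 TPM in the differentiated and 1126 to 1162 TPM in the undifferentiated libraries.

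The first committed enzyme, PPAT, which transfers an amino group from glutamine to phosphoribosyl pyrophosphate, had 31.9, 25.1, 27.5 and 27.4 TPM in the differentiated libraries, against 53.8, 56.0, 54.0 and 53.3 TPM in the undifferentiated libraries. Replicate 22 was lowest and replicate 21 highest of the differentiated libraries, all well under the undifferentiated ones, and the log2 fold change of -0.94 (SE 0.07, adjusted p = 1.14e-05) was a change of -48.5%. PAICS, the bifunctional carboxylase and synthetase of later steps, had 199, 152, 186 and 186 TPM in the differentiated libraries, against 339, 351, 324 and 331 TPM in the undifferentiated libraries. It also fell in every differentiated library, most in replicate 22, with a log2 fold change of -0.90 (SE 0.08, adjusted p = 3.03e-05) and a change of -46.3%. PPAT and PAICS are transcribed away from each other on chromosome 4, and RefSeq start sites leave the following 136 bases between them, shown because this stretch separates the genes with the largest falls of the pathway.
PPAT-PAICS (chr4:56435616-56435751, plus strand, GRCh38.p14): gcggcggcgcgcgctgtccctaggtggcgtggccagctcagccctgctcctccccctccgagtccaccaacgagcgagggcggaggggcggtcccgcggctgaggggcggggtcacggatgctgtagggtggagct
No CACGTG lies within it. The site shared by the windows starts 41 bases into PAICS, which is -182 relative to the PPAT start.

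PFAS, which makes formylglycinamidine ribonucleotide, had 26.9, 19.5, 24.5 and 29.4 TPM in the differentiated libraries, against 39.9, 42.1, 38.2 and 41.3 TPM in the undifferentiated libraries. The groups were apart, replicate 22 was lowest and the log2 fold change of -0.68 (SE 0.11, adjusted p = 0.00129) was a change of -37.9%. The remaining enzymes up to inosine monophosphate fell less. GART, which catalyses 3 separate steps of the path, was called lower at -0.47 (adjusted p = 0.00854, but 0.0764 within lane 8). ADSL, adenylosuccinate lyase, and ATIC, which closes the purine ring, fell by 0.38 and 0.41 on the log2 scale, and ATIC averaged 85.5 ± 5.03 TPM in differentiated and 114 ± 3.003 TPM in undifferentiated cells (SD, n = 4 each).

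The branch to guanine nucleotides starts with IMP dehydrogenase, of which both forms were called lower by different amounts. IMPDH1 had 24.1, 15.1, 22.3 and 20.1 TPM in the differentiated libraries, against 34.9, 33.1, 37.1 and 35.4 TPM in the undifferentiated libraries. Replicate 22 was lowest and the groups were apart, with a log2 fold change of -0.77 (SE 0.13, adjusted p = 0.00128), or -0.48 when protein-coding transcripts alone were summed. IMPDH2, the more abundant enzyme for the same reaction, had 147, 159.9, 152 and 151 TPM in the differentiated libraries, against 164, 171, 166 and 165 TPM in the undifferentiated libraries. Its log2 fold change of -0.12 (SE 0.04, adjusted p = 0.0215) was the smallest called change among the members. It was lost within lane 8 (adjusted p = 0.154), with lane as a term (0.105), without a trend in the variance (0.0601), with coding transcripts alone (0.229) and without replicate 18, 19, 23 or 24 (0.0534 to 0.0676), and it was -0.25 with median-of-ratios scaling. IMPDH1P8, a processed pseudogene of IMPDH1, was listed at 1.00 to 1.22 TPM in the differentiated and 1.24 to 1.79 TPM in the undifferentiated libraries. GMPS, which makes GMP, averaged 43.1 ± 2.01 TPM in differentiated and 58.6 ± 4.14 TPM in undifferentiated cells (SD, n = 4 each) and fell by 0.43 on the log2 scale. ADSS2, the first enzyme of the adenine branch, was called lower at -0.15 (adjusted p = 0.0105, but 0.0560 within lane 8), and at -0.28 with median-of-ratios scaling.

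Phosphoribosyl pyrophosphate, the sugar on which both kinds of base are placed, is made by PRPS1 and PRPS2. PRPS1 had 44.6, 39.6, 43.5 and 43.4 TPM in the differentiated libraries, against 50.9, 53.5, 51.5 and 51.1 TPM in the undifferentiated libraries. It was called lower, by a log2 fold change of -0.27 (SE 0.05, adjusted p = 0.00156). PRPS2 had 21.4, 22.4, 20.5 and 20.1 TPM in the differentiated libraries, against 22.1, 23.4, 23.2 and 22.6 TPM in the undifferentiated libraries, and these ranges overlapped. Its log2 fold change of -0.11 (SE 0.05, adjusted p = 0.103) was not called, although it was called lower at -0.23 with median-of-ratios scaling (adjusted p = 0.0285), -0.28 with quantile normalization (0.0166) and -0.13 without replicate 22 (0.0268).

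In the pyrimidine pathway 4 of 5 enzymes were called lower (80%, against 17.4% of all genes) and none higher (against 33.9%), with a median of -0.48. Summed levels were 125 to 164 TPM in the differentiated and 196 to 202 TPM in the undifferentiated libraries. CAD, the protein that carries the first 3 activities, had 35.4, 19.6, 26.6 and 31.0 TPM in the differentiated libraries, against 39.5, 40.1, 40.7 and 41.5 TPM in the undifferentiated libraries. Replicate 22 was far below the undifferentiated libraries while replicate 21 was close to them, and the log2 fold change of -0.54 (SE 0.16, adjusted p = 0.0198) was lost within lane 8 (adjusted p = 0.1001), with lane as a term (0.0655) and without replicate 23 (0.05002). DHODH, which oxidizes dihydroorotate in the mitochondrial inner membrane, was called lower at -0.40 (adjusted p = 0.0297), but its ranges of 8.42 to 13.0 TPM in the differentiated and 12.8 to 16.0 TPM in the undifferentiated libraries overlapped. That call was lost within lane 8 (0.208), with lane as a term (0.163), with no filter on low values (0.0528) and without replicate 17, 18, 20 or 23 (0.0578 to 0.0808). UMPS, which finishes UMP, averaged 23.7 ± 1.20 TPM in differentiated and 34.0 ± 0.775 TPM in undifferentiated cells (SD, n = 4 each), a log2 fold change of -0.51 (SE 0.05, adjusted p = 4.77e-05).

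CTP is made from UTP by CTPS1 and CTPS2. CTPS1 had 59.5, 45.5, 59.1 and 57.2 TPM in the differentiated libraries, against 75.9, 76.7, 78.6 and 78.2 TPM in the undifferentiated libraries, with replicate 22 lowest and the groups apart. Its log2 fold change of -0.48 (SE 0.08, adjusted p = 0.0015) was a change of -28.5%. CTPS2 had 34.3, 28.6, 30.9 and 33.6 TPM in the differentiated libraries, against 33.1, 30.7, 32.7 and 34.3 TPM in the undifferentiated libraries, with overlapping groups and an interval of -0.19 to 0.11. It was called lower with median-of-ratios scaling (-0.17, adjusted p = 0.0115), quantile normalization (-0.18, 0.00858) and coding transcripts alone (-0.17, 0.0254).

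The nucleoside diphosphate kinases, which charge nucleotides to triphosphates, differed from each other. NME1 had 288, 333, 313 and 285 TPM in the differentiated libraries, against 462, 472, 461 and 452 TPM in the undifferentiated libraries. Highest of the differentiated libraries was replicate 22, but all of them lay below every undifferentiated one, with a log2 fold change of -0.60 (SE 0.05, adjusted p = 3.23e-05) and a change of -33.9%. NME2, its neighbour on chromosome 17, had 459, 601, 531 and 481 TPM in the differentiated libraries, against 510.3, 490.0, 519.8 and 504 TPM in the undifferentiated libraries. Replicate 22 was the highest and replicate 21 the lowest of all 8, and the 95% interval of -0.16 to 0.21 spanned 0. Transcripts that read through from one gene into the other, NME1-NME2, were listed at 2.99 to 5.11 TPM over the 8 libraries. The genes are close in sequence, so the division of reads between them is uncertain.

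Enzymes of polyamine synthesis split between a rise at the start and falls further on. ODC1, ornithine decarboxylase, which makes putrescine and sets the pace of the pathway, had 211, 243, 214 and 212 TPM in the differentiated libraries, against 149, 157, 170.1 and 170.1 TPM in the undifferentiated libraries. Replicate 22 was the highest library, all differentiated libraries were above all undifferentiated ones, and the log2 fold change of 0.45 (SE 0.06, adjusted p = 0.000552) was a rise of 36.4%. It was also called at 0.31 after median-of-ratios scaling, 0.38 after quantile normalization and 0.40 without replicate 22. AMD1, which decarboxylates S-adenosylmethionine to provide aminopropyl groups, had 57.4, 49.4, 53.0 and 52.6 TPM in the differentiated libraries, against 81.3, 85.3, 83.6 and 82.6 TPM in the undifferentiated libraries. It fell, with the groups apart and a log2 fold change of -0.64 (SE 0.05, adjusted p = 1.44e-05).

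SRM, spermidine synthase, had 38.7, 55.8, 44.5 and 40.03 TPM in the differentiated libraries, against 58.1, 62.2, 65.3 and 61.1 TPM in the undifferentiated libraries. Replicate 22 was the highest of the differentiated libraries but still under the undifferentiated ones, and the log2 fold change of -0.47 (SE 0.11, adjusted p = 0.00741) was called. SMS, spermine synthase, ranged over 102 to 122 TPM in the differentiated and 105 to 111 TPM in the undifferentiated libraries and was not called, with an interval of -0.11 to 0.16. Summed over the 4 enzymes, the levels overlapped, at 409 to 471 TPM in the differentiated and 393 to 430.3 TPM in the undifferentiated libraries.

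Around the methionine cycle all 3 enzymes were called lower, against 17.4% of all genes. CBS, cystathionine beta-synthase, which joins homocysteine to serine, showed the largest change of all members, with 56.3, 39.9, 50.8 and 51.9 TPM in the differentiated libraries, against 144, 141, 144 and 142 TPM in the undifferentiated libraries. Replicate 22 was lowest and the groups were far apart. The change was -65.2%, with a log2 fold change of -1.51 (SE 0.10, adjusted p = 4.12e-06), and -1.15 when coding transcripts alone were summed. CBSL, a near-identical copy of CBS, was listed at 3.71 to 4.69 TPM in the differentiated and 8.86 to 11.5 TPM in the undifferentiated libraries. Adding it to CBS gave a log2 ratio of mean TPM of -1.50, and CBS alone gave -1.52.

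MAT2A, the enzyme that makes S-adenosylmethionine in cells outside the liver, had 272, 197, 237 and 247 TPM in the differentiated libraries, against 418, 391, 401 and 413 TPM in the undifferentiated libraries. Replicate 22 was lowest, the groups were apart and the log2 fold change of -0.78 (SE 0.09, adjusted p = 0.000143) was a change of -41.3%. AHCY, which hydrolyses the S-adenosylhomocysteine left after methyl transfer, averaged 92.1 ± 3.12 TPM in differentiated and 109.5 ± 1.62 TPM in undifferentiated cells (SD, n = 4 each) and fell less, with a log2 fold change of -0.25 (SE 0.04, adjusted p = 0.000609) and -0.38 with median-of-ratios scaling.

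Retention of an intron in MAT2A is known to respond to S-adenosylmethionine, so its transcripts were examined. Of its 6 transcripts in the table, MAT2A-201 and MAT2A-202 are annotated as protein coding, 3 as retained introns and 1 as a processed transcript. The 4 without a coding annotation made up 23.3%, 13.2%, 19.2% and 21.2% of MAT2A TPM in the differentiated libraries, against 31.1%, 30.0%, 30.4% and 31.5% in the undifferentiated libraries. The differentiated libraries were all lower, with replicate 22 lowest. Coding transcripts together averaged 191 ± 15.5 TPM in differentiated and 281 ± 6.04 TPM in undifferentiated cells, and the others 46.8 ± 15.7 TPM in differentiated and 125 ± 6.14 TPM in undifferentiated cells (SD, n = 4 each).

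In a limma fit on the coding share of every gene, chosen after these values had been seen, the MAT2A coding share was 11.5 percentage points higher (adjusted p = 0.0364). Of 5902 genes, 4.42% were called in this fit, 3.41% higher and 1.02% lower. That call was lost in 7 of 9 repeats with fewer libraries, whose adjusted p ranged over 0.0189 to 0.277 and whose differences ranged over 9.51 to 12.9 percentage points. It held without replicate 22, at 9.51 points. The share of retained-intron transcripts over all genes was also lowest in replicate 22, and its part in the MAT2A values was not tested. Of 20 other members with a coding share that could be tested, none was called and 5 had an unadjusted p under 0.05, the nearest being IMPDH1 at 10.4 points (adjusted p = 0.0571). In the limma test of single transcript shares, 67 of 334 member transcripts in 27 genes could be tested and none was called, against 550 of 22951 transcripts (2.4%) in all. Before adjustment, 11 of the 67 had a p under 0.05, 3 of them with a difference of 10 points or more, and without the arcsine transform none was called either. For these unadjusted counts, and for the 5 of 20 above, no share over all transcripts or genes is given, so they cannot be compared with one.

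**Figure D3:**
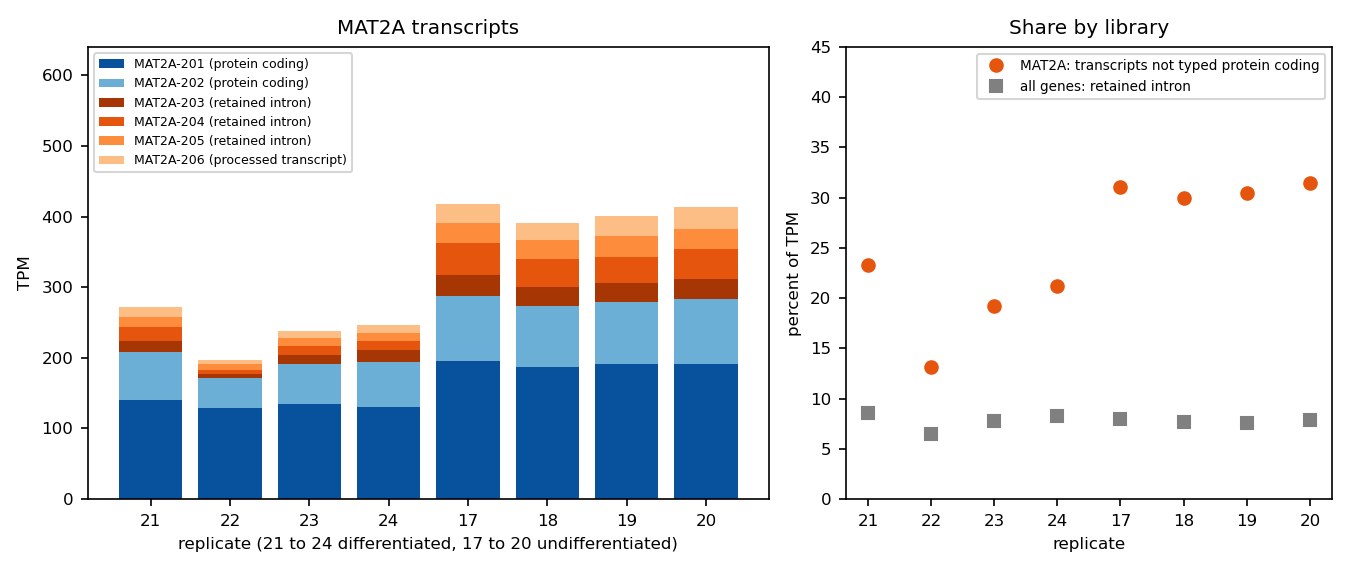
Left, TPM of the 6 MAT2A transcripts stacked by library, differentiated replicates 21 to 24 before undifferentiated replicates 17 to 20. Right, the percent of MAT2A TPM in transcripts not annotated as protein coding (orange) and the percent of all matched TPM in retained-intron transcripts (grey): the MAT2A share is 13.2% to 23.3% in differentiated and 30.0% to 31.5% in undifferentiated libraries, and replicate 22 is lowest in both measures.

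Paired enzymes that catalyse the same reaction were compared within each library as a log2 ratio of TPM + 1, which does not depend on how libraries are scaled apart from the pseudocount. For 6 of 7 pairs the differentiated and undifferentiated ratios did not overlap; no share over all gene pairs was computed, and among single genes 49.6% did not overlap. Each of the 6 had an exact two-sided permutation p of 0.0286, the smallest that 4 against 4 allows, and 0.0333 after adjustment over the 7 pairs. Without replicate 17, 18, 19 or 20 the adjusted exact p was 0.05 to 0.0667, so these calls were then lost. The mitochondrial to cytosolic SHMT2/SHMT1 ratio of TPM was 2.34 ± 0.265 in differentiated and 4.99 ± 0.217 in undifferentiated cells (SD, n = 4 each), a log2 change of -1.07. MTHFD1L/MTHFD1, also mitochondrial over cytosolic, went the other way, at 0.357 ± 0.0715 in differentiated and 0.163 ± 0.0122 in undifferentiated cells (SD, n = 4 each), a log2 change of 1.08. So the cytosolic enzyme gained on the mitochondrial one for serine cleavage, and the mitochondrial one gained for the formate step. Transcripts not annotated as protein coding made up 57.7% of SHMT2 TPM in differentiated and 62.6% in undifferentiated cells. For SHMT1 these shares were 22.9% and 21.7%. Coding transcripts alone averaged 20.7 TPM for SHMT2 and 16.5 TPM for SHMT1 in differentiated cells, and 31.4 and 13.2 TPM in undifferentiated cells.

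IMPDH2/IMPDH1 stood at 7.76 ± 1.99 in differentiated and 4.74 ± 0.29 in undifferentiated cells (SD, n = 4 each), a log2 change of 0.65, with replicate 22 highest at 10.6. NME1/NME2 was 0.591 ± 0.0296 in differentiated and 0.912 ± 0.0346 in undifferentiated cells (SD, n = 4 each), a change of -0.62. CTPS1/CTPS2 and PRPS1/PRPS2 changed by -0.44 and -0.16, so in each pair the member that was not called gained on its partner. These ratios use all transcripts of a gene and were not repeated with coding transcripts alone. In that setting CTPS2 was itself called lower, at -0.17 (limma adjusted p = 0.0254). IMPDH1 then changed by -0.48, beside -0.77 with all transcripts. For MTHFD2/MTHFD2L the ratios overlapped, and the change of -0.17 had an exact permutation p of 0.0571, also 0.0571 after adjustment. Leaving out replicate 22 changed the PRPS1/PRPS2 difference to -0.10 and the IMPDH2/IMPDH1 difference to 0.50.

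**Figure D4:**
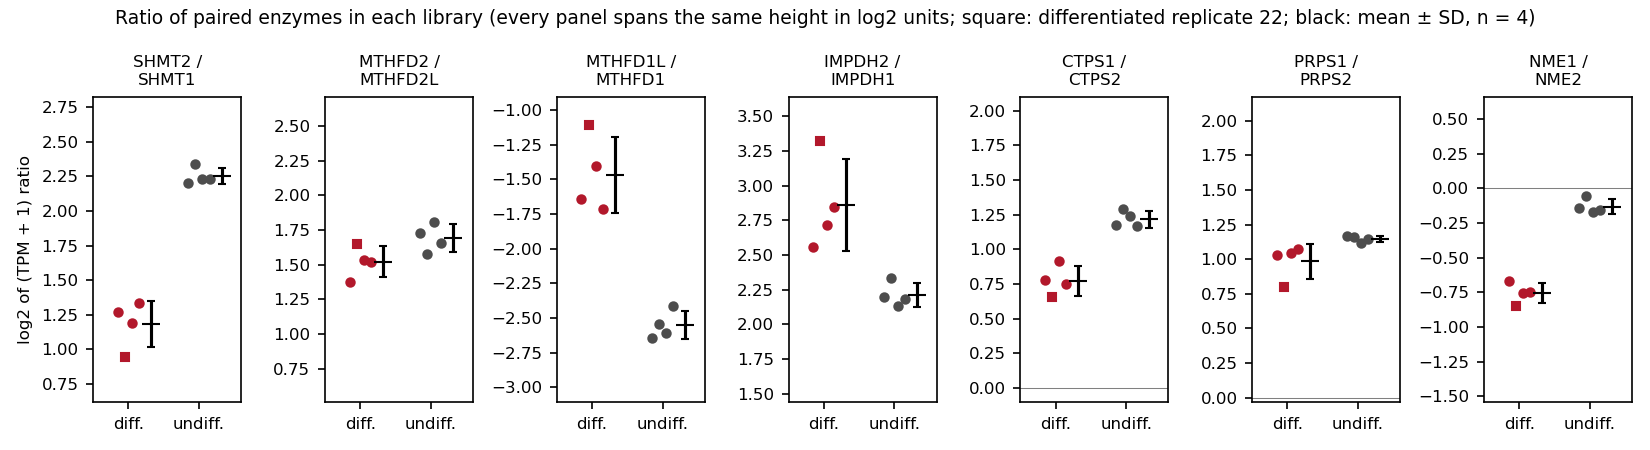
Log2 ratio of TPM + 1 of paired enzymes in each library, differentiated left of undifferentiated; every panel spans the same height, circles and squares (replicate 22) are libraries and black marks show the mean and SD of 4. The groups are apart in 6 panels and overlap for MTHFD2/MTHFD2L.

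Lists of other genes of the same pathways are set here beside the 33.9% of all genes called higher and 17.4% called lower. Those shares do not apply to the counts after rescaling, given here and for the lists below. With median-of-ratios scaling 4628 of 17077 genes were called higher and 4455 lower. With quantile normalization these were 4173 and 5098. Among 21 tested genes of folate, glycine and thymidylate metabolism, 4 were called higher (19.0%) and 6 lower (28.6%), with a median of 0.08, or 3 and 7 with median-of-ratios or quantile scaling and medians of -0.05 and -0.06. GLDC, the glycine decarboxylase of the mitochondrial glycine cleavage system, had 6.06, 5.77, 5.48 and 5.39 TPM in the differentiated libraries, against 12.6, 14.3, 13.2 and 13.3 TPM in the undifferentiated libraries. AMT, the aminomethyltransferase of the same system, had 52.9, 50.6, 50.5 and 50.1 TPM in the differentiated libraries, against 25.9, 27.0, 25.3 and 24.5 TPM in the undifferentiated libraries. These components of the same system moved in opposite directions, GLDC by -1.10 (adjusted p = 2.6e-06) and AMT by 0.97 (adjusted p = 7.03e-07). MTHFS, which returns 5-formyltetrahydrofolate to the pool, fell by 0.68 on the log2 scale, and FTCD, which passes on the one-carbon unit from histidine, was called higher at 0.67, though not within lane 8 (adjusted p = 0.124). TYMS, thymidylate synthase, was not called at 0.09 (adjusted p = 0.369), averaging 237 ± 29.1 TPM in differentiated and 221 ± 7.47 TPM in undifferentiated cells (SD, n = 4 each).

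Of 21 tested genes in the purine salvage and breakdown list, 10 were called higher (47.6%, against 33.9% of all genes) and 2 lower (9.52%, against 17.4%). The list median was 0.32 beside 0.10 for all genes. The list also counts the nucleotide kinases AK5 and NME3, and NME3 has the activity of the members NME1 and NME2. With median-of-ratios or quantile scaling the counts were 8 and 5, but these scalings also called fewer of all genes higher and more of them lower. AK5, an adenylate kinase of brain, had 24.6, 18.5, 25.9 and 25.1 TPM in the differentiated libraries, against 3.63, 2.64, 4.64 and 4.37 TPM in the undifferentiated libraries. NME3, another nucleoside diphosphate kinase, had 34.7, 45.1, 44.5 and 38.0 TPM in the differentiated libraries, against 10.1, 8.65, 9.97 and 10.5 TPM in the undifferentiated libraries. GMPR, which reduces GMP back to IMP, had 4.07, 4.17, 3.71 and 4.40 TPM in the differentiated libraries, against 0.42, 0.375, 0.491 and 0.513 TPM in the undifferentiated libraries. These 3 rose by 2.35, 1.94 and 1.81 on the log2 scale with no overlap between groups. PNP, which cleaves purine nucleosides, had 30.7, 21.1, 31.5 and 33.4 TPM in the differentiated libraries, against 63.7, 67.6, 62.8 and 68.5 TPM in the undifferentiated libraries, and fell by 1.16.

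For pyrimidine salvage and breakdown 9 of 17 tested genes were called higher (52.9%, against 33.9% of all genes) and 1 lower (5.88%, against 17.4%), with a median of 0.21, or 8 and 2 with median-of-ratios and 7 and 2 with quantile scaling. UPP1, uridine phosphorylase, had 22.0, 17.8, 24.3 and 22.2 TPM in the differentiated libraries, against 2.86, 3.67, 3.37 and 2.76 TPM in the undifferentiated libraries, the largest rise of the list at 2.44. TYMP (thymidine phosphorylase), TK2 (mitochondrial thymidine kinase) and UPB1 (beta-ureidopropionase, the last step of pyrimidine breakdown) rose by 1.16, 1.06 and 1.06. Of the ribonucleotide reductase subunits, which turn ribonucleotides into deoxyribonucleotides, RRM2B (the p53-inducible small subunit) averaged 26.3 ± 3.89 TPM in differentiated and 15.7 ± 0.971 TPM in undifferentiated cells (SD, n = 4 each) and rose by 0.70. RRM1, the large subunit, fell by 0.42. RRM2, the S-phase small subunit, was called lower at -0.25 (adjusted p = 0.0264), a call lost within lane 8 (0.106), with lane as a term (0.0688) and without replicate 17, 19, 20, 23 or 24 (0.0534 to 0.0692).

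**Figure D5:**
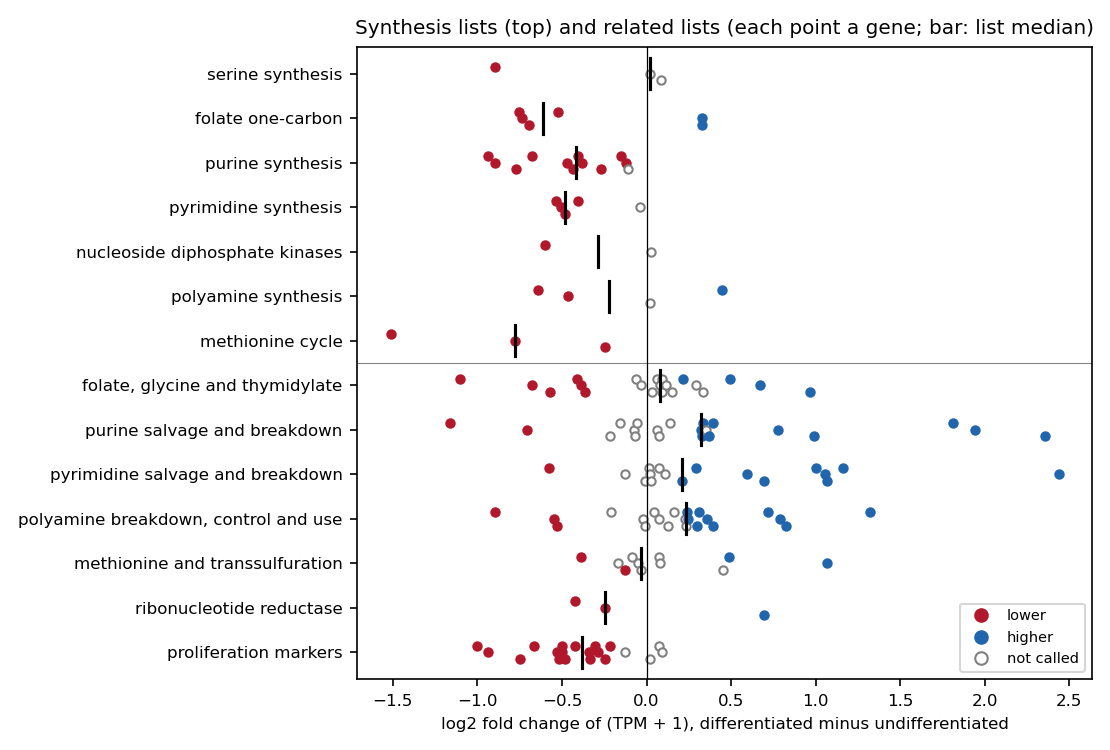
Log2 fold change of TPM + 1, differentiated minus undifferentiated, for each tested gene of the 7 member groups (above the line) and of 7 related lists (below it); filled points were called, open points were not, and bars are list medians. Medians of the purine and pyrimidine synthesis groups are -0.42 and -0.48, and those of the corresponding salvage and breakdown lists are 0.32 and 0.21.

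Beyond synthesis, polyamine breakdown, control and use gave 10 genes called higher (45.5%, against 33.9% of all genes) and 3 lower (13.6%, against 17.4%) of 22 tested, with a median of 0.23, or 6 and 4 with median-of-ratios scaling. SAT1, the acetyltransferase that starts polyamine breakdown and export, had 15.7, 16.1, 15.0 and 16.8 TPM in the differentiated libraries, against 6.59, 5.05, 5.77 and 5.75 TPM in the undifferentiated libraries, a log2 fold change of 1.32 (SE 0.08, adjusted p = 3.25e-06). PAOX, which oxidizes acetylated polyamines, and AZIN2, an antizyme inhibitor, were called higher at 0.82 and 0.79, AZIN2 not within lane 8 (adjusted p = 0.0628). ARG2, the mitochondrial arginase that supplies ornithine, averaged 6.01 ± 0.253 TPM in differentiated and 12.1 ± 0.252 TPM in undifferentiated cells (SD, n = 4 each) and fell by 0.90. OAZ1, the antizyme that directs ODC1 protein to the proteasome, was not called at 0.23, nor was the antizyme inhibitor AZIN1 at 0.08, which was called higher without replicate 22 (0.16, adjusted p = 0.0217). ARG1, the other arginase, was listed at 0 in all libraries.

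Among 11 other genes of methionine and transsulfuration, 2 were called higher (18.2%, against 33.9% of all genes) and 2 lower (18.2%, against 17.4%). With median-of-ratios scaling these were 1 and 4, and with quantile scaling 1 and 5. CDO1, which oxidizes cysteine, had 40.7, 35.3, 35.3 and 30.6 TPM in the differentiated libraries, against 14.3, 18.1, 17.2 and 15.8 TPM in the undifferentiated libraries, a log2 fold change of 1.07 (SE 0.10, adjusted p = 4.18e-05). Calls for GAMT (guanidinoacetate methyltransferase, 0.49), MTR (methionine synthase, -0.39, also counted in the folate list) and MAT2B (the regulatory partner of MAT2A, -0.13) were all lost within lane 8, with adjusted p of 0.0832, 0.177 and 0.225. GAMT was also lost with median-of-ratios scaling (0.124). Of 19 alternatives, counting the exact permutation test that called no gene, the call was lost in 11 for MTR, 8 for MAT2B and 6 for GAMT.

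Among regulators known to act on these pathways, MYC changed most. It ranged over 5.21 to 6.16 TPM in the differentiated and 51.1 to 55.5 TPM in the undifferentiated libraries, a log2 fold change of -2.99 (SE 0.06, adjusted p = 1.17e-08). MYCN, at 0.611 ± 0.0977 TPM in differentiated and 2.01 ± 0.244 TPM in undifferentiated cells (SD, n = 4 each), and MYCL, at 1.08 ± 0.163 TPM in differentiated and 2.17 ± 0.309 TPM in undifferentiated cells (SD, n = 4 each), were low and fell by 0.90 and 0.60. Over 12 genes of the MYC network, 4 were called higher (33.3%, against 33.9% of all genes) and 4 lower (33.3%, against 17.4%). With median-of-ratios scaling these were 1 and 7. MNT, a MAX partner that represses, was called higher at 0.52, a call lost within lane 8 (adjusted p = 0.120), with lane as a term (0.0838) and without replicate 18, 19, 21, 23 or 24 (0.0597 to 0.0671).

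ATF4, a factor known to induce PHGDH, PSAT1, SHMT2 and MTHFD2 under amino acid stress, had 77.2, 94.99, 82.4 and 81.7 TPM in the differentiated libraries, against 129.7, 124, 132 and 121 TPM in the undifferentiated libraries, a log2 fold change of -0.59 (SE 0.07, adjusted p = 0.000122). Its list of 23 tested genes went both ways, with 9 called higher (39.1%, against 33.9% of all genes) and 7 lower (30.4%, against 17.4%). The list median was 0.01. Counts were 6 and 9 with median-of-ratios or quantile scaling, with medians of -0.11 and -0.16. STC2 (stanniocalcin 2) and GARS1 (glycyl-tRNA synthetase) fell by 1.99 and 1.08, while GDF15 (a secreted stress factor) and DDIT3 (the stress factor CHOP) rose by 1.64 and 1.54. Among 20 proliferation markers, 16 were called lower (80%, against 17.4% of all genes) and none higher (against 33.9%), with a median of -0.38. Their sums were 1859.9 to 1930.2 TPM in the differentiated and 2469.7 to 2559 TPM in the undifferentiated libraries. CCNB1 (cyclin B1), TOP2A (topoisomerase II alpha), BUB1 (a spindle checkpoint kinase) and MKI67 (the Ki-67 antigen) fell by 1.00, 0.94, 0.75 and 0.66. TYMS and RRM2 are counted in this list as well. The part of the MYC, ATF4 and proliferation changes in the members' values was not tested.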

How the data were processed

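RNA from 8 SH-SY5Y libraries was sequenced from an Illumina stranded mRNA kit, per the labels' protocols. The authors deposited TPM for 194993 Ensembl transcripts. FastQC 0.11.2, Salmon and build GRCh37 were used, per the submitters' processing notes. The sources used here state no Salmon version, annotation or strand setting. The deposited values include CBSL, which GENCODE places in GRCh38, so the stated build is uncertain. TPM keeps no depth, so read depth is unknown, and reads of near-identical copies are divided by estimation. Transcripts were matched to GENCODE 29 by identifier (92.79%) and summed to 52719 genes (Python 3.11.15). The limma 3.58.1 fit (R 4.3.3) used log2(TPM + 1) with a mean of 1 TPM or more and was tested on simulated data. Transcript shares of 10% to 90%, in genes with 5 TPM or more in both groups, were fitted after an arcsine square root transform and called at adjusted p under 0.05 and 10 percentage points. Promoters came from RefSeq (GRCh38.p14).

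Per-library values were printed for the 12 called members with the largest change, for described isozymes and transcripts, and other members by means or ranges; each related list gave its 4 largest called changes, beside MYC, MYCN, ATF4, TYMS, RRM2, SAT1, OAZ1, AZIN1 and MKI67; 1 further gene of this rule is not reported here. Library values of PHGDH, ODC1, CAD, SRM and related genes were added after they were seen. Isozyme ratios were compared by exact two-sided permutation tests over the libraries. Alternatives were other pseudocounts, filters, scalings and tests, coding transcripts alone, lane, and leaving out each library. Members and lists were chosen with earlier results of these data known.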

Additional observations from a re-analysis of the deposited data

Results flagged for a closer look

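In 7 of 152 groups of 4 values examined, 1 library lay far from the other 3 by Dixon's 95% criterion. Chance alone gives this in about 1 in 20 groups. Differentiated replicate 22 gave 3 of them: 38.0 TPM for MTHFD2 (others 33.4 to 34.2), 45.5 TPM for CTPS1 (others 57.2 to 59.5) and 243 TPM for ODC1 (others 210.6 to 214). In the differentiated group, AMT had 52.9 TPM in replicate 21 (others 50.1 to 50.6) and MAT2B had 72.4 TPM in replicate 23 (others 76.0 to 76.7). In the undifferentiated group, SHMT1 had 17.6 TPM in replicate 19 (others all 16.6) and GAMT had 16.2 TPM in replicate 20 (others 18.2 to 18.5).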

How the results depend on the processing

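No called gene or isozyme ratio changed direction under any alternative tried for it. Isozyme ratios were tried in only 10: a pseudocount of 0.1, lane 8 alone and each library left out. Genes not called did change sign, to -0.044 for PHGDH, -0.11 for PSPH, -0.11 for NME2, -0.11 for SMS, -0.038 for TYMS and -0.055 for AZIN1 (median-of-ratios scaling), -0.016 for PHGDH, -0.10 for PSPH and -0.073 for SMS (quantile normalization), -0.097 for PSPH (protein-coding transcripts only), -0.055 for PSPH and -0.00063 for SMS (lane 8 only), -0.055 for PSPH and -0.00063 for SMS (lane as a term). With 1 library left out their ranges spanned 0, at -0.024 to 0.056 for PSPH, -0.048 to 0.081 for NME2, -0.029 to 0.055 for SMS and -0.076 to 0.0094 for CTPS2. Coding share differences that were not called also spanned 0 then, in percentage points, at -0.605 to 5.71 for PHGDH, -0.714 to 7.35 for SHMT2, -2.09 to 2.24 for GART, -0.255 to 4.96 for ATIC, -0.716 to 2.83 for IMPDH2 and -1.26 to 1.9 for DHODH, and within lane 8 were -2.45 for DHODH. Members called higher and lower stayed within 2 to 4 and 21 to 28 in every limma alternative. The exact permutation test per gene, whose smallest p for 4 against 4 is 0.0286, called 0 genes higher and 0 lower, in all genes and among members, because the smallest adjusted p was 0.0576; unadjusted, it gave p under 0.05 for 8475 genes and 28 members, and limma called 29 members. The median of members was -0.60 with median-of-ratios scaling, -0.59 with quantile normalization and -0.39 with coding transcripts alone; that of all genes changed sign, to -0.017 and -0.068, with those scalings. All genes called lower were 5098 with quantile normalization and 1886 within lane 8. Transcripts called were 35 within lane 8 and 158 to 680 with 1 library left out; member transcripts called were 0 to 1, the 1 arising without replicate 24. Genes with a higher coding share were 4 within lane 8 and 51 to 254 with 1 library left out, and those with a lower share 4 and 16 to 119. With 1 library left out, all genes gave 5217 to 6616 higher and 2507 to 3379 lower, and members 3 to 4 and 23 to 27. Without a differentiated library the 6 isozyme ratios kept an adjusted p of 0.0333, and without an undifferentiated one theirs were 0.05 to 0.0667, with log2 changes of SHMT2/SHMT1 -1.12 to -0.99, MTHFD1L/MTHFD1 0.96 to 1.16, IMPDH2/IMPDH1 0.50 to 0.75, CTPS1/CTPS2 -0.49 to -0.40, PRPS1/PRPS2 -0.19 to -0.099 and NME1/NME2 -0.65 to -0.59. Within lane 8, where the smallest exact p is 0.0667, their changes were SHMT2/SHMT1 -1.05, MTHFD1L/MTHFD1 1.04, IMPDH2/IMPDH1 0.70, CTPS1/CTPS2 -0.43, PRPS1/PRPS2 -0.15 and NME1/NME2 -0.59. The adjusted exact p was then 0.267 for PRPS1/PRPS2 and 0.0933 for the rest of the 6. No paired analysis was possible because the groups share no replicate numbers. Lane 7 holds undifferentiated libraries only, and depth is unknown.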

Other observations

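Some related genes in or near these pathways moved in opposite directions, and these were picked out after their values had been seen. ADSS1, the adenylosuccinate synthase known from muscle, had 11.1, 9.15, 10.1 and 10.02 TPM in the differentiated libraries, against 4.59, 4.86, 4.44 and 4.38 TPM in the undifferentiated libraries, while the member ADSS2 was called lower. ADSS1 was called higher at 0.99 (limma adjusted p = 1.02e-05). EIF5A, the translation factor that carries a residue made from spermidine, had 265, 298, 285 and 271 TPM in the differentiated libraries, against 409.7, 407, 419 and 398 TPM in the undifferentiated libraries, and was called lower at -0.55 (limma adjusted p = 1.57e-05). Its relative EIF5A2 had 10.2, 5.53, 7.86 and 7.29 TPM in the differentiated libraries, against 5.13, 4.28, 3.70 and 3.83 TPM in the undifferentiated libraries, and was called higher at 0.72 (limma adjusted p = 0.007).

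Among carriers of serine and folate and related enzymes, SFXN1, a mitochondrial serine carrier, had 55.2, 36.5, 44.5 and 49.99 TPM in the differentiated libraries, against 69.0, 64.9, 72.7 and 69.6 TPM in the undifferentiated libraries, and was called lower at -0.57. SFXN3, a related carrier, had 47.8, 38.0, 47.1 and 49.9 TPM in the differentiated libraries, against 32.1, 32.5, 31.4 and 32.2 TPM in the undifferentiated libraries, and was called higher at 0.49. SLC19A1, the reduced folate carrier of the plasma membrane, was called lower at -0.41, at 12.8 ± 0.439 TPM in differentiated and 17.4 ± 1.504 TPM in undifferentiated cells (SD, n = 4 each). FPGS, which adds glutamates that hold folate in the cell, was called higher at 0.21, at 42.2 ± 1.15 TPM in differentiated and 36.2 ± 1.35 TPM in undifferentiated cells (SD, n = 4 each). Among pyrimidine salvage genes, UCK2, a uridine-cytidine kinase, was the only one called lower, at -0.58, with 47.4 ± 2.90 TPM in differentiated and 71.2 ± 0.85 TPM in undifferentiated cells (SD, n = 4 each). The differences between the paired genes named here were not tested.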
